A study of Mus musculus with 3 samples.

Results

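The pro-survival arm of the BCL2 family was examined in lymphoma cells of pBIC2 mice, through the 5 genes Mcl1, Bcl2, Bcl2l1, Bcl2l2 and Bcl2a1b, taken by gene name from the 37646 genes that each deposited count table lists. RNA sequencing of polyA RNA had been done on 3 libraries of B220+GFP+ lymphoma B cells sorted from spleen, which the labels place in 1 group and which are called tumours 1, 2 and 3 here. All 3 carry the same genotype on C57BL/6: floxed p53 and Blimp1 alleles, an IKK2ca allele behind a floxed stop, Cre at Cg1, and an Eµ-hBCL2 transgene, labelled as a model of ABC-DLBCL, a diffuse large B cell lymphoma that resembles activated B cells. Cre from the Cg1 locus acts in B cells that transcribe that constant region, and the Eµ enhancer drives the human BCL2 transgene in B lineage cells. The age of the mice and whether the libraries came from separate mice are not stated, and the design text names YFP+ germinal centre B cells as controls, which were not analysed here. The results are therefore levels and their spread between tumours (SD, n = 3), with no test between groups, and the spread may be technical in part.

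BCL2 family proteins set the threshold of mitochondrial apoptosis. The pro-survival members bind the BH3 segment of their relatives: they hold the effectors BAX and BAK, which perforate the outer mitochondrial membrane, and they sequester BH3-only proteins, which sense stress and trigger the effectors. B cells depend on BCL2 in the resting state and on MCL1 in the germinal centre, while BCL-XL (from Bcl2l1) and A1 (from the Bcl2a1 genes) are known targets of NF-κB, the pathway that IKK2 activates.

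The libraries held 15576975, 16477997 and 17014022 gene counts in tumours 1, 2 and 3, and the 5 genes took 0.0901%, 0.102% and 0.102% of them. Levels are given as CPM (read counts scaled by library size and TMM factors). Ratios, shares and ranks between genes use RPKM (CPM per kilobase of annotated exons). Some figures, the marker sums and an alternative without gene length set CPM of different genes together. At this depth 3 counts correspond to 0.199, 0.184 and 0.169 CPM. Intervals in brackets are exact 95% Poisson intervals, and since reads carried no molecular identifiers they cover counting error only. All 10 B cell markers (such as Cd79a, Pax5 and Ms4a1) reached 10 CPM in each tumour. The summed CPM of 10 T cell markers came to 0.0576%, 0.227% and 6.22% of the B cell sum in tumours 1, 2 and 3, with 9 of 10 markers highest in tumour 3 and Cd3e at 0 in tumour 1. Macrophage markers came to 0.176%, 2.13% and 1.28% (9 of 10 highest in tumour 2, with Cd14 at 0 in tumours 1 and 3), neutrophil markers to 0.000970%, 0.0894% and 0.305% (8 of 9 highest in tumour 3, and 8 of 9 at 0 in tumour 1) and NK cell markers to 0.00906%, 0.0129% and 0.343% (Ncr1 at 0 in all). Plasma cell markers came to 2.36%, 1.99% and 2.55%, mostly from Irf4 and Xbp1, and germinal centre markers to 0.0178%, 0.523% and 0.362%. One gene carried some of these sums, and the sums without it were added after seeing the data. Without Rgs13, the germinal centre markers came to 0.0175%, 0.0505% and 0.341%, with 5 of 6 markers of the full list highest in tumour 3. Without Cd68, the macrophage markers came to 0.0547%, 0.429% and 0.126%. The B cell sum itself was 20491.7, 19057.5 and 14081.3 CPM, of which Cd74 alone gave 13860, 8314 and 4812 CPM. Its fall raises the percentages of tumour 3. In CPM the plasma cell markers summed to 483, 378 and 359, highest in tumour 1, whereas the other lists kept their order of tumours.

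Mcl1 was by far the most abundant of the 5 mouse pro-survival genes and also the steadiest. Mcl1 encodes a short-lived protein that restrains BAK and BAX and that binds the BH3-only proteins BIM and NOXA (Pmaip1). Its level was 761 CPM [747 to 775] in tumour 1, 746 CPM [732 to 759] in tumour 2 and 831 CPM [818 to 845] in tumour 3. The highest tumour was 1.11 times the lowest, and the mean was 779 ± 45.5 CPM or 228 ± 13.3 RPKM. Its mean RPKM lay at percentile 98.8 of the 11273 genes that passed the filter on low counts, and the SD of its log2 CPM (0.08) at percentile 3.65. The gene, ENSMUSG00000038612.16, lies on chromosome 3 from 95658788 to 95663176 (plus strand, mm10), no other annotated gene overlaps its exons, and none of the 50-base windows of its longest transcript recurs exactly in a transcript of another gene.

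**Figure D1:**
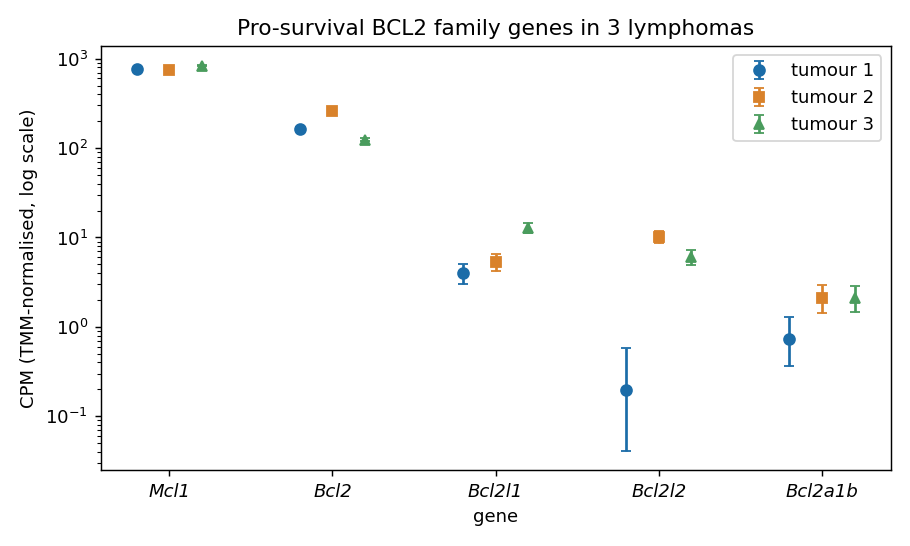
CPM (log axis) of the 5 pro-survival genes in tumours 1, 2 and 3, as points with exact 95% Poisson intervals. Mcl1 lies between 746 and 831 CPM in every tumour, Bcl2 between 124 and 263 CPM, and the other 3 genes at or below 12.9 CPM.

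Bcl2, the founding member of the family, ranked next and was highest in tumour 2. It was at 164 CPM [157 to 170] in tumour 1, 263 CPM [255 to 271] in tumour 2 and 124 CPM [119 to 129] in tumour 3, so that no interval overlapped another. The highest tumour was 2.12 times the lowest, and the mean of 20.0 ± 7.81 RPKM lay at percentile 75.4. The mouse gene, ENSMUSG00000057329.7, spans chromosome 1 from 106538178 to 106714274 (minus strand), with 9157 bases of annotated exons. The model also carries human BCL2, and whether reads of the transgene entered these counts was not tested, so the counts do not give the total BCL2 message. Of the mouse exon bases, 6.09% overlap the antisense gene D630008O14Rik. In addition, 6.75% of the 50-base windows of the longest Bcl2 transcript recur exactly in transcripts of other genes.

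Bcl2l1, which encodes BCL-XL, was low, and highest in tumour 3. It had 60, 86 and 228 counts in tumours 1, 2 and 3, or 3.98 CPM [3.03 to 5.12], 5.27 CPM [4.22 to 6.51] and 12.9 CPM [11.2 to 14.6]. The intervals of tumours 1 and 2 overlapped and that of tumour 3 lay above both, 3.23 times the lowest. Tumour 3 also had the highest sum of T cell markers (6.22% of the B cell sum against 0.0576% and 0.227%). Its sums of neutrophil markers (0.305%), NK cell markers (0.343%, mostly Prf1) and, without Rgs13, germinal centre markers (0.341%) were the highest too. Among the NK cell markers, Ncr1 and Klrb1c had no count in tumour 3. The part of any of these cells in the Bcl2l1 level was not tested. In a bulk library, fewer cells of a type and less RNA per cell cannot be told apart. Per length the mean was 1.61 ± 1.05 RPKM, at percentile 14.6 of the filtered genes. Bcl2l1 (ENSMUSG00000007659.18, chromosome 2, 152780668 to 152831728, minus strand) shares no 50-base window with another gene.

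The Bcl2l1 promoters were searched for the κB consensus motif, to which NF-κB dimers bind, on both strands of windows from 250 bases before to 50 bases after each RefSeq start (GRCm38.p6). Of 3 listed Bcl2l1 promoters, 1 held a match, whereas the promoters of Mcl1, Bcl2, Bcl2l2 and the 4 Bcl2a1 copies (1 each) held none. A match was found in 8.46% of all 32851 promoters. The match lies 242 to 233 bases before the start, and it is shown in capitals within chr2:152830908-152830967 (minus strand) because Bcl2l1 was the gene of this family whose listed promoters held it.
Bcl2l1 promoter: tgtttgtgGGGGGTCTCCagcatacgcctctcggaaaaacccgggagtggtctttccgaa
The match describes these letters and is not evidence of binding.

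Bcl2l2, which encodes BCL-W, was the member that differed most between tumours. It had 3 counts in tumour 1 against 164 in tumour 2 and 107 in tumour 3, or 0.199 CPM [0.0410 to 0.581], 10.1 CPM [8.57 to 11.7] and 6.03 CPM [4.94 to 7.29]. Tumour 1 was at the limit of 3 counts, and the intervals of all 3 tumours were separate. The ratio of tumour 2 to tumour 1 was 50.6, with an exact 95% counting interval of 17.0 to 248, and that of tumour 3 to tumour 1 was 30.3 (10.1 to 149). Tumour 1, where Bcl2l2 was lowest, also had the lowest sums of T cell, macrophage, neutrophil, NK cell and germinal centre markers. The NK cell marker Klrb1c was nevertheless highest in tumour 1. The macrophage sum had the same order of tumours as Bcl2l2, with or without Cd68, and the germinal centre sum had it only with Rgs13. The part of those cells in the Bcl2l2 level was not tested. Of the 5 genes it was the one that did not pass the filter on low counts, which asked for a minimum level in all 3 libraries. Bcl2l2 (ENSMUSG00000089682.10) lies on chromosome 14 from 54883377 to 54888234 (plus strand), and 13.3% of its exon bases also belong to the same-strand gene Gm20521, which was not analysed here. Reads from that stretch can be assigned to either gene or to neither, according to the counting rule, which is not given in the sources used here.

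Bcl2a1b is 1 of 4 closely related mouse copies of the gene for A1, a short-lived pro-survival protein of haematopoietic cells. It had 11, 34 and 37 counts in tumours 1, 2 and 3, or 0.729 CPM [0.364 to 1.30], 2.08 CPM [1.44 to 2.91] and 2.09 CPM [1.47 to 2.87]. Tumours 2 and 3 were alike, and tumour 1 lay below both without overlap of the intervals. The mean was 1.999 ± 0.958 RPKM, at percentile 18.2. The tumour with the lowest level also had the lowest sums of T cell, macrophage and neutrophil markers (0.0576%, 0.176% and 0.000970% of the B cell sum). The same held for the sums of NK cell and germinal centre markers (0.00906% and 0.0178%), although the NK cell marker Klrb1c was highest in tumour 1. The part of those cells in the A1 counts was not tested.

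Bcl2a1b, Bcl2a1d and Bcl2a1a differ at so few bases that many 50-base reads fit more than one, and Bcl2a1c is more distant. All 4 are shown over the first 120 coding bases (GENCODE M21 transcripts, mm10), with capitals at each base that differs from Bcl2a1b. Reads over such bases can fit fewer of the copies. Differences outside this stretch also separate the copies, and some windows over these bases still recur in a gene other than the 4 copies. The stretches are chr9:89199360-89199479 (plus strand) for Bcl2a1b, chr9:88731600-88731719 (minus strand) for Bcl2a1d, chr9:88957051-88957170 (plus strand) for Bcl2a1a and chr9:114330156-114330275 (plus strand) for Bcl2a1c.
Bcl2a1b: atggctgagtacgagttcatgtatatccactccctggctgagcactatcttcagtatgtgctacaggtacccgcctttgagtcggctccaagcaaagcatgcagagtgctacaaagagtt
Bcl2a1d: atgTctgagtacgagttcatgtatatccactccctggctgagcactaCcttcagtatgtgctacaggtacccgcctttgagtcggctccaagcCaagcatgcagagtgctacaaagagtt
Bcl2a1a: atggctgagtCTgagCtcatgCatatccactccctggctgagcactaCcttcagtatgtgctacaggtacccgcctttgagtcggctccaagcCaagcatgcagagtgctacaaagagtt
Bcl2a1c: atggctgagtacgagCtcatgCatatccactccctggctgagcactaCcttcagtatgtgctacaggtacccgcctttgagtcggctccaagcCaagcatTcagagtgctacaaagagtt
Counted from 1 at the start codon, and with the base of Bcl2a1b first, Bcl2a1d differs by G4T, T48C and A94C, and Bcl2a1a by A11C, C12T, T16C, T22C, T48C and A94C. Over the whole coding sequence of 516 bases, Bcl2a1d differs from Bcl2a1b at 6 bases (98.8% identity) and Bcl2a1a at 11 (97.9%). Each shares an unbroken run of 217 identical bases with Bcl2a1b. Bcl2a1c, whose annotated coding sequence has 384 bases, differs at 5 of the first 120 and, compared base by base without gaps, at 67 of 384 (82.6% identity).

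Of the 768 windows of 50 bases in the Bcl2a1b transcript, 79.2% recur exactly in another gene's transcript, 442 of them in another Bcl2a1 copy and the others in Gm29094, which overlaps 49.1% of the Bcl2a1b exon bases on the same strand and was not analysed here. The share was 79.5% for Bcl2a1d, 69.0% for Bcl2a1a and 10.4% for Bcl2a1c. Counts were uneven over the copies. Bcl2a1d had 0, 4 and 28 counts in tumours 1, 2 and 3, Bcl2a1a 1 in each, and Bcl2a1c 1, 2 and 2. In tumour 3 Bcl2a1d was at 1.58 CPM [1.05 to 2.28], which is 7.94 times the limit of 3 counts in tumour 1 (0.199 CPM). The interval of tumour 1 reached 0.244 CPM, so counting error allows a smaller ratio. The sum over the 4 copies was 13, 41 and 68 counts, or 0.862 CPM [0.459 to 1.47], 2.51 CPM [1.80 to 3.41] and 3.83 CPM [2.98 to 4.86]. On that sum tumour 3 was highest, although its interval overlapped that of tumour 2. The level of each copy is uncertain, because the handling of multi-mapping reads is not given in the sources used here.

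**Figure D2:**
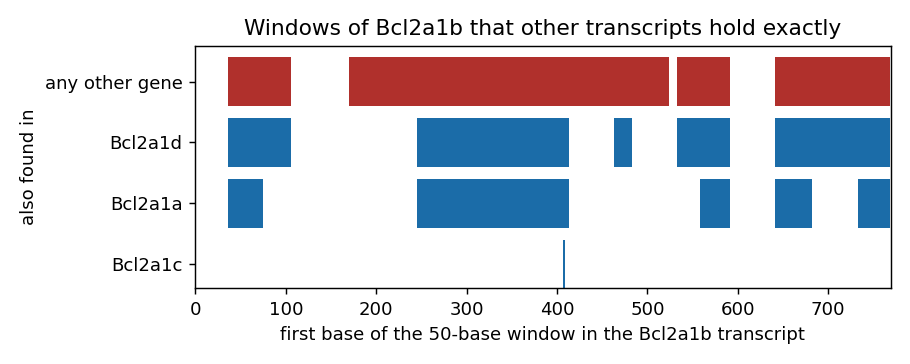
Starts of 50-base windows along the Bcl2a1b transcript (x axis, base number) that recur exactly in any other gene's transcript (red) or in Bcl2a1d, Bcl2a1a or Bcl2a1c (blue). Shared windows cover 79.2% of the 768 starts.

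**Figure D3:**
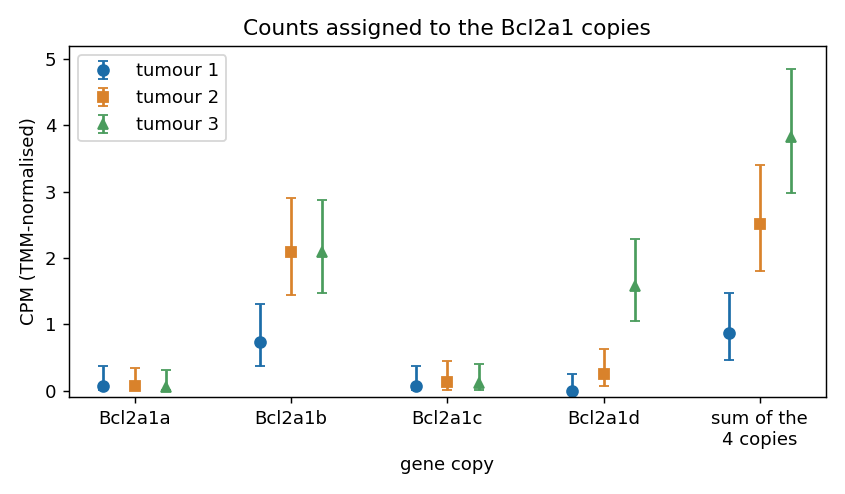
CPM of the 4 Bcl2a1 copies and of their sum in tumours 1, 2 and 3, with exact 95% Poisson intervals. Bcl2a1b held most of the counts in every tumour, and the sum ran from 0.862 CPM in tumour 1 to 3.83 CPM in tumour 3.

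Set side by side per length, the counted message of the 5 mouse genes was mostly Mcl1. Mcl1 made up 91.9%, 86.3% and 92.3% of the summed RPKM of the 5 genes in tumours 1, 2 and 3 (90.2 ± 3.36%), and Bcl2 7.38%, 11.3% and 5.13% (7.95 ± 3.15%). Bcl2a1b took 0.782 ± 0.359%, Bcl2l1 0.626 ± 0.383% and Bcl2l2 0.474 ± 0.438%. The RPKM ratio of Mcl1 to Bcl2 was 12.5, 7.61 and 18.0. The ratio of Bcl2 to Bcl2l1 was 20.6 and 24.9 in tumours 1 and 2 and 4.82 in tumour 3, where Bcl2 was lowest and Bcl2l1 highest. These shares rest on counts assigned to mouse genes, and any transgene reads among the Bcl2 counts would be part of them. Human BCL2 message not counted under mouse Bcl2 lies outside the sum, and its amount is not known. The shares are therefore not shares of all pro-survival message in these cells.

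The order of mean log2 RPKM was Mcl1 (7.83 ± 0.08), Bcl2 (4.25 ± 0.55), Bcl2a1b (0.98 ± 0.79), Bcl2l1 (0.52 ± 0.87) and Bcl2l2 (-0.71 ± 2.69). Mcl1 lay above Bcl2 by 3.58 ± 0.62 and Bcl2 above Bcl2a1b by 3.28 ± 0.90, in 3 of 3 tumours each and without overlap of the ranges. Bcl2a1b and Bcl2l1 differed by 0.45 ± 0.66, within the spread between tumours, with tumour 3 in the opposite order. With the longest transcript in place of all exons as length, their order was reversed (-0.39). Bcl2l1 and Bcl2l2 differed by 1.24 ± 2.30, also within the spread, and tumour 2 had them in the opposite order. The length used matters most for Bcl2a1b: counted per window that no other gene shares, an alternative added after seeing the data, Bcl2 lay above it by 1.39 and the share of Bcl2a1b was 3.67%.

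Of the 5 genes, Mcl1 varied least between tumours. By the SD of log2 CPM, Mcl1 was at 0.08, Bcl2 at 0.55, Bcl2a1b at 0.79, Bcl2l1 at 0.87 and Bcl2l2 at 2.69, against a median of 0.39 over the 11273 filtered genes. In 4 of 5 genes (all but Mcl1) the highest tumour was at least 2 times the lowest on this scale, which 41.3% of the 12445 genes with a mean of at least 1 CPM also were. Of the 4 members that passed the filter on low counts, 3 were, against 34.1% of the genes that passed. With so few genes these counts are a description of the members. Leaving out the tumour farthest from the other values lowers an SD of 3 values by construction. The lowest SD of each gene is therefore a description. The SD of Bcl2 fell to 0.26 without tumour 2, that of Bcl2l1 to 0.27 without tumour 3, those of Bcl2l2 and Bcl2a1b to 0.52 and 0.0020 without tumour 1, and that of Mcl1 to 0.027 without tumour 3. The count of 4 genes became 2 without tumour 1 and 2 without tumour 3.

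**Figure D4:**
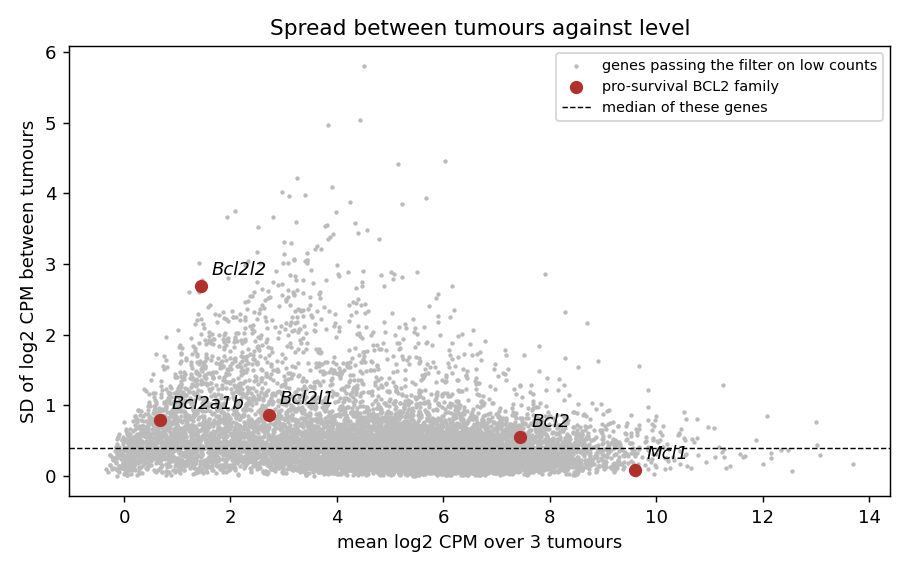
SD of log2 CPM between the 3 tumours (y axis) against mean log2 CPM (x axis) for the 11273 genes that passed the filter on low counts (grey), with their median as a dashed line, and the 5 pro-survival genes in red. Mcl1 lies below the median of 0.39 and the other 4 above it.

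The BH3-only genes, whose products oppose the pro-survival proteins, were led by Bid and Pmaip1 per length and varied most in Bcl2l11. Of 8 BH3-only genes, 6 had counts in each tumour and 4 reached 10 CPM in all 3. Bcl2l11 encodes BIM, which binds every pro-survival member and is known to restrain autoreactive B cells. It was at 165, 23.8 and 74.2 CPM in tumours 1, 2 and 3, so that it was lowest in the tumour with the highest Bcl2. The RPKM ratio of Bcl2l11 to Bcl2 was accordingly 1.15, 0.103 and 0.684. Bbc3, which encodes PUMA, a p53 target, was at 12.1, 26.2 and 9.07 CPM and followed the order of Bcl2, highest in tumour 2 and lowest in tumour 3.

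Pmaip1 encodes NOXA, the selective partner of MCL1 and A1, and was at 93.4, 84.3 and 50.2 CPM. The RPKM ratio of Mcl1 to Pmaip1 was 6.52, 7.07 and 13.2, highest in tumour 3. Bid, which links death receptors to mitochondria once cleaved, was at 129, 71.4 and 104 CPM. Bmf was at 10.6, 2.94 and 6.09 CPM, and Bad, which binds BCL2 and BCL-XL, was steady at 13.1, 12.2 and 15.0 CPM. Bik had 6 counts in tumour 3 and none elsewhere, and Hrk had none. In Bcl2l11, Bid and Bmf the order of the tumours was the same, with tumour 1 highest and tumour 2 lowest. Bbc3, Pmaip1 and Bad had other orders. The share of all genes with the order of Bcl2l11 was not computed, so it is a description. The highest tumour was at least 2 times the lowest in 4 of 8 BH3-only genes and in 3 of the 6 that passed the filter on low counts (34.1% of all filtered genes), with a median SD of 0.63.

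Of the effectors, Bak1 was above Bax in every tumour. Bak1 was at 92.8, 55.4 and 59.5 RPKM and Bax at 41.0, 40.4 and 33.4 RPKM, a ratio of 2.26, 1.37 and 1.78 (1.80 ± 0.446). Bok, the third effector gene, had 1 count in tumour 3 and none elsewhere. In neither Bak1 nor Bax did the highest tumour reach 2 times the lowest (34.1% of filtered genes did), and Bok has too few counts to tell. Mcl1 was above both effectors per length in every tumour, and Bcl2, as counted for the mouse gene, was below both.

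**Figure D5:**
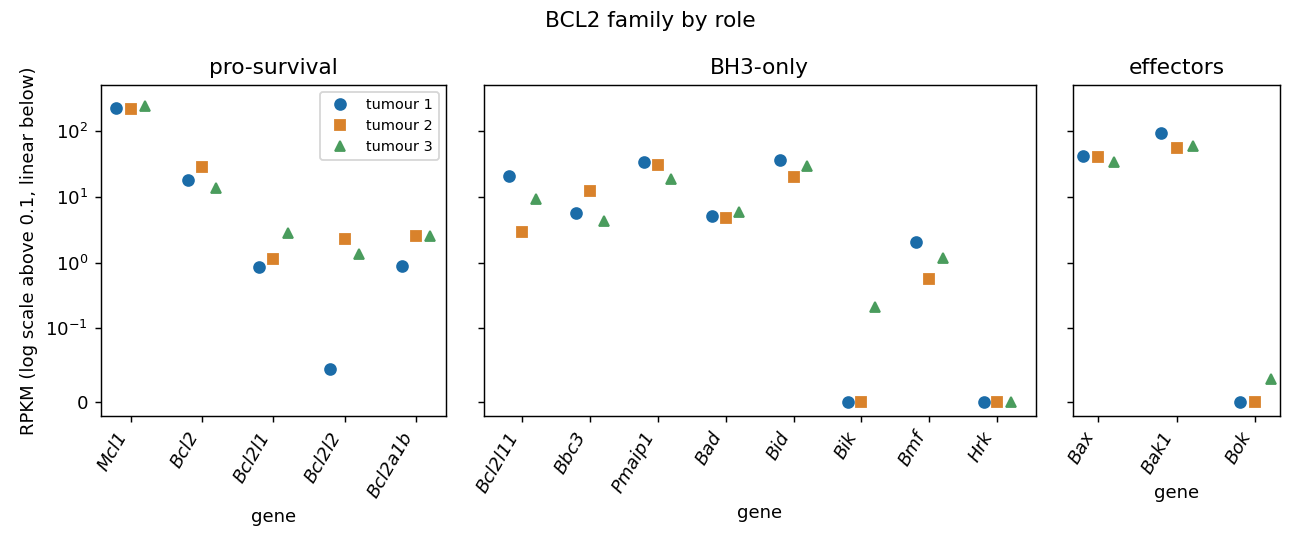
RPKM of pro-survival, BH3-only and effector genes in tumours 1, 2 and 3 (points, no error bars; the y axis is logarithmic above 0.1 and linear below). Mcl1 lies above all others, Bcl2l11 falls from 20.6 RPKM in tumour 1 to 2.96 RPKM in tumour 2, and Hrk is at 0 in all 3 tumours.

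The less studied BCL2-like genes were mixed. Bcl2l12 was at 28.3, 27.5 and 18.3 CPM and Bcl2l13, whose product sits in the outer mitochondrial membrane, at 111, 66.5 and 59.1 CPM. Bcl2l15 reached 15.3 CPM in tumour 2 and was at 0.862 and 1.30 CPM in the others, the largest spread of the list. Bcl2l10 had no count. In 2 of the 4 genes that passed the filter on low counts the highest tumour was at least 2 times the lowest (34.1% of filtered genes). With so few genes this count is a description.

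Genes that set MCL1 protein turnover all reached 10 CPM in each tumour, and in 0 of 4 was the highest tumour 2 times the lowest (34.1% of filtered genes). Huwe1, a ubiquitin ligase for MCL1, was at 550, 726 and 620 CPM, and Fbxw7, the substrate receptor of another such ligase, at 58.7, 38.9 and 61.2 CPM. Usp9x, a deubiquitinase that stabilises MCL1, was at 62.3, 77.9 and 112 CPM, and Btrc, a further substrate receptor, at 29.8, 18.9 and 34.0 CPM. Messenger levels do not give the amount of the protein.

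Downstream of the mitochondria, all 7 genes had counts in each tumour and 5 reached 10 CPM in all 3. Apaf1, the scaffold of the apoptosome, was at 113, 126 and 81.4 CPM, and Xiap, a caspase inhibitor, at 98.5, 72.6 and 96.8 CPM. In 2 of the 7 genes the highest tumour was at least 2 times the lowest, near the 34.1% of filtered genes.

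All 10 genes of survival inputs reached 10 CPM in each tumour. Tnfrsf13c, the BAFF receptor, was at 621, 449 and 235 CPM and was thus lowest in tumour 3. Rel, the NF-κB subunit best known for inducing Bcl2l1 and Bcl2a1 in B cells, was at 407, 343 and 303 CPM, an order opposite to that of Bcl2l1. Rela, another subunit, was at 121, 119 and 176 CPM, highest in tumour 3 as Bcl2l1 was. Of the 10 genes, 7 were highest in tumour 3, 2 in tumour 1 and 1 in tumour 2. The further subunit genes Relb, Nfkb1 and Nfkb2 were among the 7. The share of all genes highest in tumour 3 was not computed, so these counts only describe the list. Cd40, a receptor for T cell help, was at 62.6, 172 and 104 CPM and was highest in tumour 2, as was Bcl2. In 2 of 10 genes the highest tumour was at least 2 times the lowest (34.1% of filtered genes), and 3 tumours are too few for a correlation between any of these genes and the members.

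The protein-coding genes whose profile over the 3 tumours was most like that of each member were found by the Euclidean distance of centred log2 CPM, over 3 samples. Pja2, Cdk10 and Mrpl43 were nearest to Mcl1 (distances 0.00564, 0.0139 and 0.0151), and 310 of 10020 genes lay within 0.1 of it. For Bcl2 they were Gcc2, Micos13 and Mrpl20 (0.0133, 0.0216 and 0.0230, with 37 genes within 0.1). Gcc2, for example, was at 55.3, 88.9 and 41.3 CPM. For Bcl2l1 they were Slc36a3, Gng3 and Helz2 (0.0241, 0.0329 and 0.0397, with 9 genes within 0.1), of which Helz2 was at 309, 422 and 1009 CPM. For Bcl2a1b they were Ell2, Crybg1 and Slc31a2 (0.0454, 0.0501 and 0.0532). The nearest to Bcl2l2 were Cnn3, Ptprs and Syne2, at greater distances (0.130, 0.271 and 0.334), and Cnn3 was at 1.06, 35.9 and 19.9 CPM. With 3 samples a small distance is a description and no sign of a link.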

How the data were processed

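The authors deposited raw counts per gene, and the submitters' processing notes name FastQC, STAR 2.5.2b, featureCounts 1.6.0 and mm10. Annotation release, strand setting and handling of multi-mapping reads were not given in the sources used here. No row without a gene name was found. Library totals were 15576975 to 17014022 counts. The labels gave 1 group, and the tumour numbers follow accession order and carry no meaning.

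Counts were scaled with TMM factors from edgeR 4.0.16 (R 4.3.3) after filterByExpr. Log2 CPM used a prior count of 2, which understates the differences of low genes. RPKM used the union of GENCODE M21 exons (37536 of 37646 gene IDs matched without version). DESeq2 1.42.0 gave alternative size factors. A 2-fold difference is one of at least 1 in log2 CPM between the highest and the lowest tumour. Windows of 50 bases were compared with all GENCODE M21 transcripts on both strands, exact matches only. Promoters came from RefSeq (GRCm38.p6). Tables and figures were made in Python 3.11.15 (matplotlib 3.10.9, SciPy 1.17.1, pandas 2.3.3, NumPy 2.4.6). Scaling, the 2-fold rule and the profile distances were checked on simulated counts, with changes planted in well-counted genes. Gene lengths, shares, windows, promoters and changes in genes with few counts were not part of that check.

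The members and the gene lists (Bcl2a1 copies, other BCL2-like, BH3-only, effectors, MCL1 turnover, mitochondrial apoptosis downstream, survival inputs, and markers of B, T, NK, plasma and germinal centre B cells, macrophages and neutrophils) were chosen with earlier results of these data known. Named were all members, Bcl2a1 copies, BH3-only and effector genes, the 3 most abundant by RPKM and the most variable gene of each other pathway list, and the 3 genes nearest in profile to each member. Some genes that this rule names are left out here. The genes at 0 and the named NK cell markers were added after their values were seen. Alternatives covered size factors, prior count, filters, the fold, gene length, the Bcl2a1 copies and leaving out each tumour.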

Additional observations from a re-analysis of the deposited data

How the results depend on the processing

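No paired analysis was possible because the samples form 1 group. Of 89 values recomputed with all 3 libraries, 73 moved by less than the spread between tumours (or, for an SD, a percentile or a count, by less than 1.5 times), 14 by more, and 2 changed sign. The mean log2 CPM of each member moved by less than its own SD under every setting run, a wide margin for Bcl2l2 (SD 2.69). Size factors shift the libraries around a common centre, so a mean over all 3 hardly moves by construction. Summing the Bcl2a1 copies likewise leaves the differences between other members unchanged. Such values are among the 73 and say nothing about stability. The order of Bcl2a1b and Bcl2l1 depended on length: their log2 difference was -0.39 with the longest transcript, -2.04 without length and 1.94 with unshared windows. Without length, Mcl1 held 79.9%, Bcl2 18.6% and Bcl2a1b 0.165% of the summed level, Mcl1 lay above Bcl2 by 2.16 and Bcl2 above Bcl2a1b by 6.76. With unshared windows as length, added after seeing the data, Mcl1 held 84.6%, Bcl2l1 1.05% and Bcl2a1b 3.67%, and Bcl2 lay above Bcl2a1b by 1.39; with the longest transcript Bcl2l1 held 1.09%. The lengths themselves make these changes. Scaled by total counts alone, the SD of Mcl1 was 0.13, at percentile 8.94, and among all genes with any count its percentile was 2.35.

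Leaving out each tumour in turn, the SD of log2 CPM ran from 0.027 to 0.12 for Mcl1, 0.26 to 0.77 for Bcl2, 0.27 to 1.20 for Bcl2l1, 0.52 to 3.51 for Bcl2l2 and 0.0020 to 0.999 for Bcl2a1b. Its percentile ran from 5.03 to 19.9 for Mcl1, 37.6 to 85.8 for Bcl2, 45.0 to 92.0 for Bcl2l1 and 0.395 to 89.3 for Bcl2a1b. The mean log2 CPM of Bcl2l2 (1.44) ran from 0.50 to 3.01, and its share of the summed RPKM (0.474%) from 0.266% to 0.702%. The number of genes with a 2-fold difference ran from 2 to 3. These values come from 2 libraries each. Depth limits Bcl2l2 in tumour 1 and the Bcl2a1 copies, which have few counts.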
